A study of Mus musculus with 4 samples.

Results

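Pan-leukocyte genes are taken here as genes that white blood cells of many lineages transcribe. The values of 9 of them are described here in cultured mouse FGSCs (female germline stem cells), from a table of 53465 genes. *Ptprc*, *Cd53*, *Coro1a*, *Srgn*, *Lcp1*, *Laptm5*, *Vav1*, *Lcp2* and *Was* were picked by name, and all 9 were listed and passed the filter on low values. The names were picked with results of these libraries in view, so the levels and group differences of the 9 genes are a description and carry no test. The cells were labelled as an FGSC line of germ stem cells from the ovary, and the labels give neither strain nor age. Lentivirus delivered an shRNA to *Nat10* in the shNAT10 group and a control hairpin in the shNC group, and puromycin or blasticidin selected the infected cells. Both groups thus shared viral infection and drug selection. Each group had 2 libraries, called biological replicates in the paper, and the labels do not say whether these came from separate cultures, so the p-values measure the spread between these libraries only. The libraries were made to find genes that differ between the groups. *Nat10*, which encodes the RNA cytidine acetyltransferase NAT10, had 7.79 and 5.42 FPKM (fragments per kilobase of exon, scaled for sequencing depth) in shNC against 2.95 and 3.04 in shNAT10. Both shNAT10 values lay below both shNC values, with a log2 fold change of -1.09 ± 0.21 (SE) and an adjusted p of 0.123 in limma.

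The leukocyte surface carries the phosphatase CD45, encoded by *Ptprc*, and the tetraspanin CD53. CD45 removes an inhibitory phosphate from Src family kinases, which then phosphorylate antigen and Fc receptors. The adapter SLP-76, encoded by *Lcp2*, gathers the exchange factor VAV1 at the activated receptor. VAV1 loads small GTPases with GTP, and WASP, encoded by *Was*, then switches on the Arp2/3 complex, which branches actin filaments. Coronin 1A and L-plastin, encoded by *Coro1a* and *Lcp1*, bind and bundle these filaments. LAPTM5 is a lysosomal membrane protein that lowers receptor levels, and serglycin, encoded by *Srgn*, is the proteoglycan core on which blood cells pack granule proteases.

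Depth and identity were checked first. Fragments recovered from the FPKM totalled 11057921 to 14902440 per library, and no gene of the 9 fell under 106 fragments in any library. Counting error was largest for *Was*, at 106 to 164 fragments. A share of 38.7% and 29.8% of fragments in shNC and of 18.3% and 20.2% in shNAT10 fell on 3 rRNA-related loci. The paper treats *Gm42418* and *Gm26917* among these loci as long noncoding RNAs and reports lower levels of both in shNAT10 by RT-qPCR. Whether the share reflects rRNA carry-over or these RNAs was not tested. The 9 genes took 0.20% and 0.245% of all fragments in shNC and 0.240% and 0.241% in shNAT10. The FPKM were also rescaled to the fragments outside those loci, a scaling chosen after seeing the data. Over all genes tested, the log2 fold change of shNAT10 over shNC then had a median of 0.105, against 0.0054 before.

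The label of the cells was then set against markers, since all 9 genes are blood cell genes. Among 7 germline markers *Dazl*, *Pou5f1* and *Dppa3* were at 0 in all 4 libraries, and *Ddx4* was at 0 in 3. *Ifitm3* alone gave the list its level, with 9.29 and 22.2 FPKM in shNC and 27.1 and 33.6 in shNAT10. In these libraries most defining germline transcripts were thus at or near 0. The RT-PCR and immunofluorescence of germline markers in the study were not analysed here. Mast cell markers summed to 313 to 323 FPKM in the 4 libraries, most of it from the carboxypeptidase *Cpa3* at 245 to 272, while *Tpsb2* and *Fcer1a* were at 0. Within the list 2 markers were called lower in shNAT10 and 1 higher. The receptor gene *Kit* had 24.5 and 21.2 FPKM in shNC against 14.5 and 15.6 in shNAT10, and the transcription factor gene *Gata2* had 41.5 and 38.6 against 31.9 and 31.6. *Ms4a2*, for the beta chain of the IgE receptor, went the other way, from 0.938 and 0.539 to 3.77 and 3.13 FPKM. *Cma1*, for the protease chymase, stayed under 1 FPKM and was not called. Macrophage markers summed to 48.1 and 52.9 FPKM in shNC and to 38.1 and 43.3 in shNAT10, almost all from *Adgre1*, whereas *C1qa*, *C1qb* and *C1qc* were at 0. *Adgre1* was called lower, and *Lyz2*, for the lysozyme of myeloid cells, was called higher, from 0.45 and 0.38 to 0.97 and 1.54 FPKM. The macrophage sum was lower in both shNAT10 libraries, as was the sum of the 9 genes, and its part in their difference was not tested. Platelet markers, led by *Itga2b*, summed to 32.7 to 39.6 FPKM, and *Pf4*, for a platelet chemokine, was called higher in shNAT10, at 2.76 and 2.99 FPKM against 0.47 and 1.05. Fibroblast markers, led by *Dcn* with overlapping groups, summed to 46.7 to 63.9 FPKM. Among them *Lum* was at 0, and the collagen genes *Col1a1*, at 0.480 to 0.667 FPKM, and *Col1a2*, at 2.24 to 2.71, were not called. *Pdgfra* of the same list was higher in shNAT10, with 10.8 and 10.2 FPKM against 6.74 and 5.08 in shNC. So was *Thy1*, with 4.36 and 3.99 against 2.42 in both shNC libraries. *S100a8*, of the neutrophil list, was called higher as well, from 0.368 and 0.243 to 1.03 and 0.846 FPKM. *Pdgfra*, *Thy1*, *Pf4*, *Lyz2*, *S100a8* and *Ms4a2* thus moved against the 9 genes, and their part in the difference was not tested either. Neutrophil, B cell, T cell, NK cell, dendritic cell, erythroid, oocyte, granulosa, endothelial and epithelial lists each summed to under 2 FPKM. In such bulk samples, fewer cells of a type and less RNA per cell cannot be told apart.

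**Figure D1:**
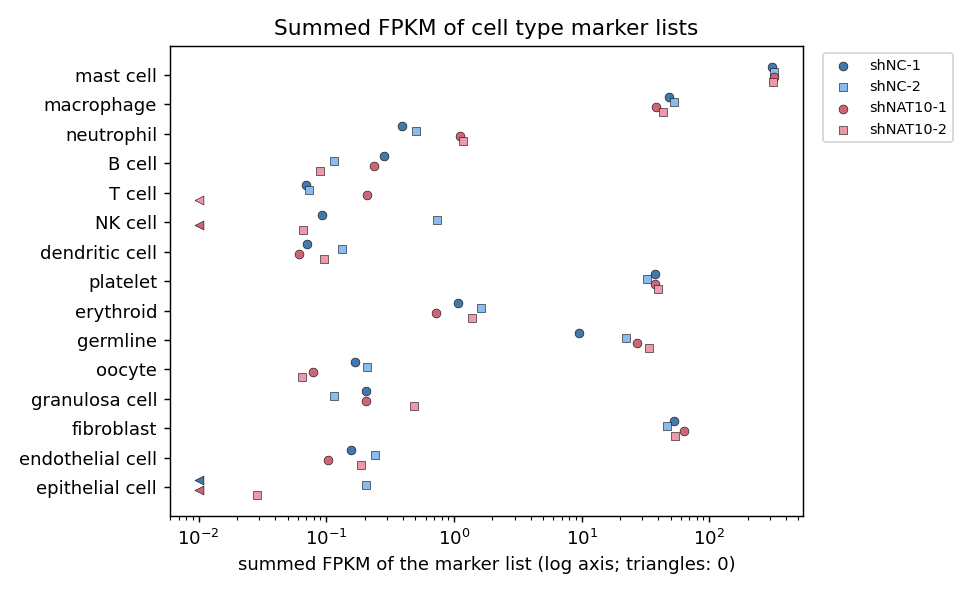
Summed FPKM of each cell type marker list (x axis, log scale, triangles for 0) in the 2 shNC and 2 shNAT10 libraries, 1 point per library. The mast cell list lies at 313 to 323 FPKM in both groups, and the lymphocyte, neutrophil and oocyte lists lie near 0.

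The 9 genes were well expressed in every library. Their mean FPKM spanned 34.4-fold, on a scale that accounts for gene length. *Cd53* ranked 166, *Coro1a* 168, *Srgn* 263 and *Lcp1* 291 by mean FPKM among 22003 protein-coding genes, of which 16154 were above 0. *Lcp2* ranked 722, *Vav1* 1639 and *Ptprc* 2082, while *Laptm5* ranked 3498 and *Was* 5600. Of the 8 pairs of neighbours in this order, *Cd53* with *Coro1a* and *Srgn* with *Lcp1* overlapped across the 4 libraries. In each of the other pairs every value of the higher gene lay above every value of the lower gene. The sum of the 9 genes was 624 and 686 FPKM in shNC against 517 and 524 in shNAT10. Both shNAT10 sums were lower than both shNC sums.

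**Figure D2:**
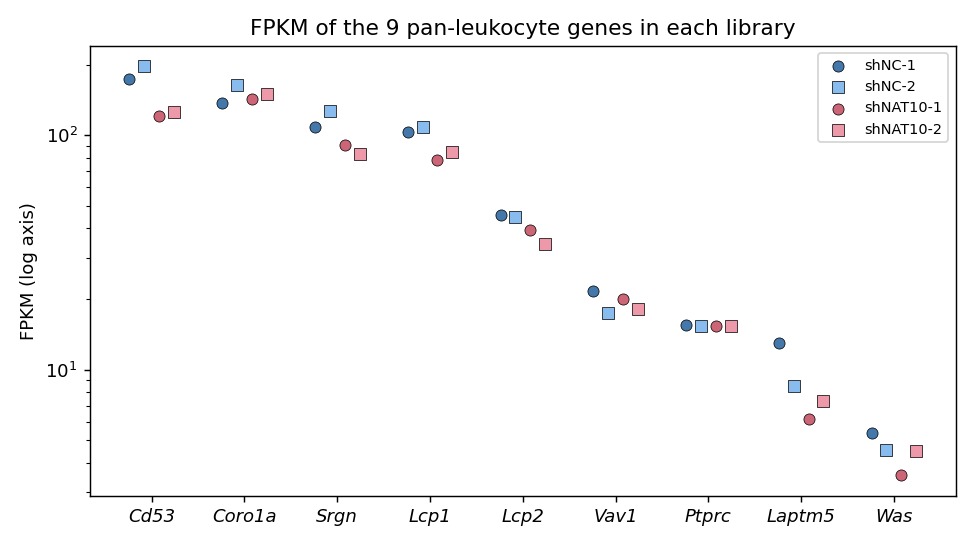
FPKM (y axis, log scale) of the 9 pan-leukocyte genes in the 2 shNC (blue) and 2 shNAT10 (red) libraries, circles for replicate 1 and squares for replicate 2. The red points of *Cd53*, *Srgn*, *Lcp1*, *Lcp2* and *Laptm5* lie below the blue points, and those of *Coro1a* and *Vav1* overlap with them.

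The upstream sequences of 4 of these genes show how unlike each other their start regions were. Each line holds the 250 bases before the RefSeq transcription start in GRCm38.p6, on the coding strand from 5′ to 3′, with GAGGAA or its reverse complement TTCCTC in capitals. GAGGAA is the core that the blood cell ETS factor encoded by *Spi1* binds. *Cd53*, *Srgn* and *Lcp1* were the 3 most abundant of the genes called lower in shNAT10, and *Vav1* is shown as a gene whose groups overlapped. The windows lie at chr3:106790150-106790399 on the minus strand for *Cd53*, at chr10:62527446-62527695 on the minus strand for *Srgn*, at chr14:75130873-75131122 on the plus strand for *Lcp1* and at chr17:57278850-57279099 on the plus strand for *Vav1*.
Cd53: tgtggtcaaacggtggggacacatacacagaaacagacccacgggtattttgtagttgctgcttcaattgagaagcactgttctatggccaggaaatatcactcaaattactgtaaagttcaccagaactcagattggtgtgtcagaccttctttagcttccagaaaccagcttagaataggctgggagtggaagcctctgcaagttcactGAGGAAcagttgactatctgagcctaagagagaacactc
Srgn: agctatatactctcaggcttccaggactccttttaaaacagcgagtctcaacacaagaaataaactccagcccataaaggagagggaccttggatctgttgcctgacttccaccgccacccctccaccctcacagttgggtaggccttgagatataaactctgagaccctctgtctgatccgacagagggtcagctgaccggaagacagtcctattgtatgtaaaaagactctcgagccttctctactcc
Lcp1: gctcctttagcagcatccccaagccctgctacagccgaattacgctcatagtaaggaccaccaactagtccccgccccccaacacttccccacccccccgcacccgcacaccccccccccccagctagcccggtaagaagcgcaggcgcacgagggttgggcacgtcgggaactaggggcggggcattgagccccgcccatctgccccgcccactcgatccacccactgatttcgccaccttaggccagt
Vav1: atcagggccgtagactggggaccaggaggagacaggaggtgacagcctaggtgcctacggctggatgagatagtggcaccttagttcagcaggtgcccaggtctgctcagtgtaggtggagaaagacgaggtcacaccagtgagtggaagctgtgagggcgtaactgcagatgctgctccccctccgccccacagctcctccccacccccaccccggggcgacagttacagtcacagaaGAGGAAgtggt

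All 9 genes matched the RefSeq windows, with 13 windows in all. GAGGAA was found on either strand in 4 of the 13 windows, 1 each of *Cd53*, *Vav1*, *Ptprc* and *Laptm5*, and in 23.3% of all 32851 windows. Of these 4 genes, *Cd53* and *Laptm5* had lower FPKM in shNAT10, whereas *Vav1* and *Ptprc* differed little. The Sp1 letters GGGCGG occurred 4 times in the *Lcp1* window shown and in 3 of the 13 windows, against 32.7% of all windows. The GATA letters AGATAA stood in 2 windows (9.99% of all), the RUNX letters TGTGGT in 3 (14% of all) and the TATA letters TATAAA in 3 (12.4% of all). The windows of the 9 genes held 0 to 16 CpG pairs with a median of 4, and the median of all windows was 6. The *Lcp1* window shown had the 16 pairs, and the *Lcp2* window had 0. These letters are matches in a window and no evidence of binding.

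Among the surface and vesicle genes, *Cd53* differed most in absolute level. *Cd53* (chr3:106759921-106790149, minus strand) had 174 and 196 FPKM in shNC against 121 and 126 in shNAT10. Both shNAT10 libraries lay well below both shNC libraries, at 1.5-fold lower, with a log2 fold change of -0.58 ± 0.10 (SE). The gap between the groups exceeded the gap between the replicates of either group. *Ptprc* (chr1:138062861-138175708, minus strand) had 15.5 and 15.4 FPKM in shNC and 15.3 in both shNAT10 libraries. Its log2 fold change of -0.01 ± 0.08 (SE) left the CD45 transcript at nearly the same level in all 4 libraries, although the groups did not overlap. *Laptm5* (chr4:130913125-130936141, plus strand) had 13.0 and 8.54 FPKM in shNC against 6.16 and 7.35 in shNAT10. The groups did not overlap, and its log2 fold change of -0.64 ± 0.23 (SE) came with the widest replicate gap of the 9 genes, -0.60 from shNC-1 to shNC-2 on the log2 scale. Without shNC-1 its log2 fold change was -0.34, and without shNC-2 it was -0.94. *Srgn* (chr10:62493833-62527451, minus strand), for the granule proteoglycan, had 109 and 127 FPKM in shNC against 91.0 and 83.1 in shNAT10. Both shNAT10 values were lower, by 1.35-fold with a log2 fold change of -0.43 ± 0.11 (SE).

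The signalling genes were both below 0 on the log2 scale, *Vav1* only slightly, and the difference between them was not tested. *Lcp2* (chr11:34046920-34092295, plus strand), for the adapter SLP-76, had 45.4 and 44.6 FPKM in shNC against 39.6 and 34.3 in shNAT10. Both shNAT10 libraries lay below shNC, with a log2 fold change of -0.29 ± 0.10 (SE). It was -0.19 without shNAT10-2. *Vav1* (chr17:57279100-57328031, plus strand), for the exchange factor that SLP-76 binds, had 21.7 and 17.5 FPKM in shNC and 20.05 and 18.2 in shNAT10. Its groups overlapped, with both shNAT10 values between the shNC values, and the log2 fold change was -0.03 ± 0.14 (SE). *Lcp2* shared 282 exon bases with the antisense gene *4930469K13Rik*, which had 2.62 to 2.83 FPKM. The sources used here do not give the strand setting of the counting, so reads of both genes cannot be told apart in those bases.

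The cytoskeletal genes were likewise all below 0, *Coro1a* only slightly. *Coro1a* (chr7:126699773-126707787, minus strand) had 137 and 164 FPKM in shNC and 142 and 150 in shNAT10. Its groups overlapped, with a log2 fold change of -0.04 ± 0.12 (SE). *Lcp1* (chr14:75131101-75230842, plus strand) had 103 and 108 FPKM in shNC against 78.5 and 84.7 in shNAT10. Both shNAT10 libraries lay below shNC by more than the gap between replicates, at 1.30-fold lower, with a log2 fold change of -0.37 ± 0.09 (SE). The antisense gene *Gm15629* shares 219 of its 476 exon bases with *Lcp1* and had 74.8 and 87.2 FPKM in shNC against 65.1 and 63.0 in shNAT10, so its values went the same way and cannot be told apart from those of *Lcp1* in the shared bases. A second antisense gene, *Gm15628*, shares 311 of 547 exon bases and had 0.778 to 1.67 FPKM. *Was* (chrX:8081453-8090498, minus strand), for the activator of Arp2/3, had 5.36 and 4.53 FPKM in shNC and 3.55 and 4.49 in shNAT10. Its groups were separated by less than the gap between replicates, and the log2 fold change was -0.30 ± 0.18 (SE). It was -0.13 without shNAT10-1, -0.18 without shNC-1 and -0.46 without shNAT10-2.

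In the fit over 20116 genes, 5 of the 9 genes passed both a 1.2-fold change and an unadjusted p threshold of 0.05, all lower in shNAT10. These were *Cd53*, *Laptm5*, *Srgn*, *Lcp1* and *Lcp2*. Of all genes tested, 7.83% were called lower and 8.41% higher at this threshold. Of the 6898 genes with a mean FPKM of 4 or more, a level that all 9 genes reached and that was chosen after seeing the data, 13.6% were called lower. The 9 genes were picked with this contrast in view, so nothing is read from their count. In 7 of the 9 genes the groups did not overlap and shNAT10 was the lower, as in 24.1% of all genes and 31.4% of those 6898. The median log2 fold change was -0.30 over the 9 genes and 0.01 over all genes tested. None (0 of 9) passed an adjusted p under 0.05, a level that 0.437% of all genes passed, while 5 had an unadjusted p under 0.05. In limma-voom on the recovered fragments, 4 of the 9 had an adjusted p under 0.05. The count of 5 dropped to 1 without shNAT10-1, to 2 without shNAT10-2 and to 3 without either shNC library. With FPKM rescaled to the fragments outside the rRNA-related loci, *Cd53*, *Srgn* and *Lcp1* were called, the calls of all genes split into 980 lower and 2470 higher against 1576 and 1691 before, and *Ptprc*, *Coro1a* and *Vav1* turned to 0.09, 0.07 and 0.08. These last values lay below 0.105, the median over all genes tested in that scaling.

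**Figure D3:**
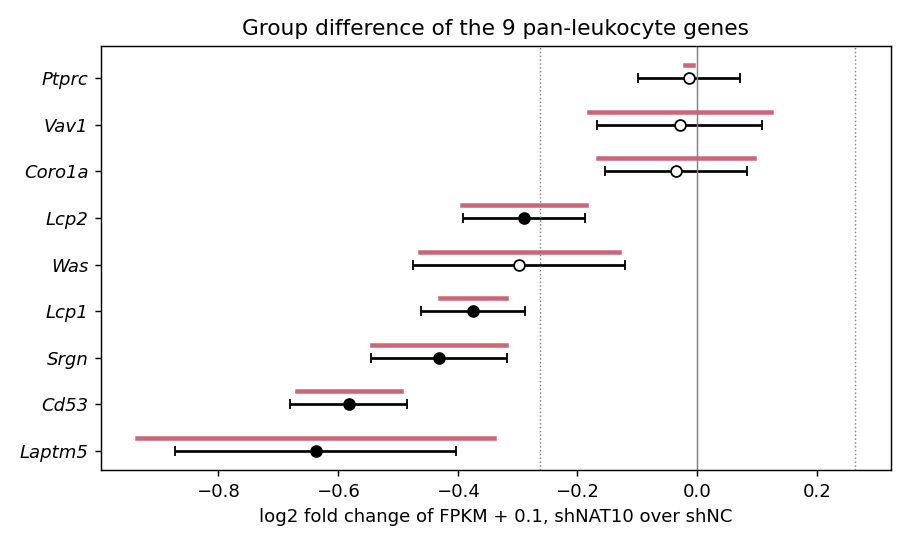
Log2 fold change of FPKM + 0.1, shNAT10 over shNC (x axis), of the 9 pan-leukocyte genes. Points with bars give the fit and its SE, filled where both thresholds were passed, red lines give the range with each library left out, and dotted lines mark a fold of 1.2. *Cd53*, *Srgn*, *Lcp1* and *Laptm5* stay left of the dotted line at each omission, whereas the red lines of *Coro1a* and *Vav1* cross 0.

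Relatives of 8 of the 9 genes were compared next, most of them expressed in many tissues and some, such as *Cd37* and *Blnk*, in blood cells. Of 28 such paralogs 24 could be tested, 3 fell and 4 rose at the threshold that 7.83% of all genes passed downward and 8.41% upward, and the median log2 fold change was 0.00. Of the 6898 genes with a mean FPKM of 4 or more, 13.6% fell and 11.9% rose. The calls of the paralogs were 2 lower and 6 higher on the scale without the rRNA-related loci. The tetraspanins split by gene. *Cd82* had 8.16 and 8.41 FPKM in shNC against 4.67 and 6.06 in shNAT10 and fell by 0.63 on the log2 scale (limma adjusted p = 0.188). *Cd37*, another leukocyte tetraspanin, fell by 0.39 (limma adjusted p = 0.230). *Cd9* rose by 0.52 ± 0.11 (SE, limma adjusted p = 0.147), from 4.17 and 4.08 to 5.85 and 6.06 FPKM. *Cd151* rose by 0.29 and *Cd81* by 0.28, while *Cd63* had a log2 fold change of -0.17 and was not called. The ratio of *Cd53* to *Cd81* FPKM was accordingly 3.81 and 4.42 in shNC and 2.19 and 2.33 in shNAT10.

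*Laptm4b*, a relative of *Laptm5* found on lysosomes of many cell types, rose most of the called paralogs. It had 5.54 and 4.87 FPKM in shNC against 9.87 and 9.63 in shNAT10, 1.86-fold higher, with a log2 fold change of 0.90 ± 0.12 (SE, limma adjusted p = 0.0770). *Laptm5* exceeded *Laptm4b* in both shNC libraries, at ratios of 2.34 and 1.75, and was below it in both shNAT10 libraries, at 0.625 and 0.764. *Laptm4a* stayed between 68.7 and 73.6 FPKM, above *Laptm5* in every library. *Coro2a* fell by 0.54 on the log2 scale (limma adjusted p = 0.206), and *Coro1b* at 79.7 to 84.5 FPKM, *Coro1c* at 5.22 to 7.30, *Coro7* at 2.18 to 3.60 and *Coro6* under 1 FPKM were not called. *Coro1a* was 1.71 to 1.94 times *Coro1b*.

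Unlike *Laptm5*, the genes *Lcp1*, *Vav1*, *Was* and *Ptprc* had higher FPKM than each relative named here in every library. *Lcp1* was 6.62 to 9.67 times *Pls3*, the plastin of non-blood cells, and *Pls3* had 11.2 to 11.9 FPKM and was not called. *Vav1* was 15.5 to 21.4 times *Vav2* and 8.89 to 10.6 times *Vav3*. *Was* exceeded *Wasl*, for N-WASP, by 4.46 and 3.04 times in shNC and by 1.93 and 2.27 times in shNAT10. *Wasl* itself had a log2 fold change of 0.48 and was not called (limma adjusted p = 0.330). *Lcp2* lay below *Clnk*, the SLP-76 relative of mast cells and other blood cells. *Clnk* had 61.6 and 66.1 FPKM in shNC and 74.5 and 77.9 in shNAT10, a fold change of 1.19 that stayed under the threshold. *Blnk*, the B cell relative, was at 0 in 3 of the 4 libraries. *Ptprc* exceeded *Ptpra* 1.49 to 1.73 times, *Ptprs* 2.56 to 2.98 times and *Ptpre* 7.13 to 8.34 times, and *Ptprj*, *Ptprk* and *Ptprm* were under 1 FPKM in each library. None of these receptor phosphatases was called. Of the 7 paralog calls, those of *Laptm4b*, *Cd9* and *Cd151* held with any library left out. *Cd81* lost its call without shNAT10-1 or shNC-2, *Cd82* without either shNC library, *Coro2a* without either shNAT10 library, and *Cd37* kept it only when shNC-2 was the library left out. The counts lower and higher were 1 and 3 without shNAT10-1, 2 and 4 without shNAT10-2, 2 and 5 without shNC-1 and 2 and 4 without shNC-2.

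**Figure D4:**
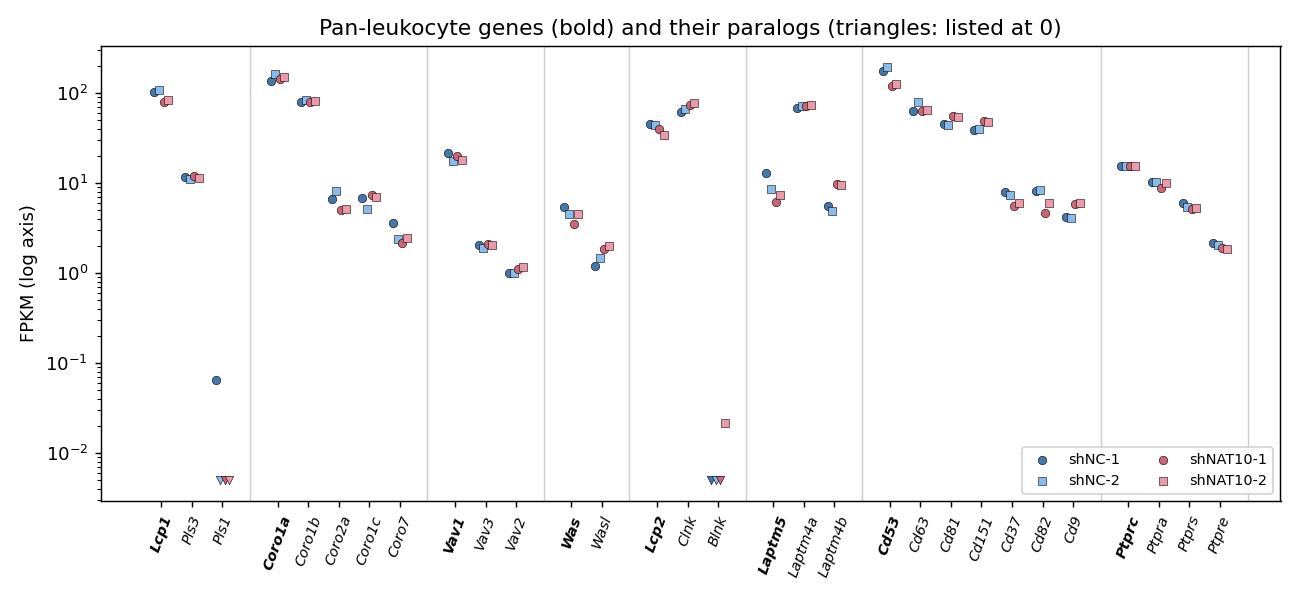
FPKM (y axis, log scale) of 8 pan-leukocyte genes (bold) and paralogs of each in the 4 libraries, blue for shNC and red for shNAT10. *Laptm5* and *Laptm4b* change order between the groups, and *Lcp2* lies under *Clnk* throughout.

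A further list held 32 genes of leukocyte surface, signalling and motility, of which 30 could be tested. At the threshold 12 fell and 2 rose, against 7.83% and 8.41% of all genes. This list and the others here were chosen with earlier results of these data known, so nothing is read from their counts. The median log2 fold change of the list was -0.13. In 15 of the 30 the shNAT10 values were the lower with no overlap, against 24.1% of all genes. In 8 of the 30 they were the higher with no overlap, against 23.9% of all genes. Of the 6898 genes at 4 FPKM or more, 13.6% were called lower and 31.4% lay lower with no overlap. *Fcer1g*, the gamma chain shared by Fc receptors, had 43.4 and 47.8 FPKM in shNC against 21.9 and 23.4 in shNAT10. It fell 2.01-fold, by 1.01 ± 0.09 on the log2 scale, and alone in the list passed an adjusted p under 0.05 in limma (0.0489). *Gmfg*, for an Arp2/3 debranching factor of blood cells, fell by 1.26 (limma adjusted p = 0.0842) from 2.87 and 3.35 to 1.33 and 1.16 FPKM. *Myo1g*, for a leukocyte membrane myosin, fell by 0.79 and *Bin2*, for a membrane-bending BAR protein, by 0.66. *Il10ra*, for a subunit of the interleukin receptor, fell by 1.14, and *Gpsm3*, for a regulator of G protein signalling, by 0.61. The 2 rises, named after their values had become known, were *Lsp1*, for an actin-binding protein, and *Ptpn7*, for a phosphatase. *Lsp1* had 0.428 and 0.228 FPKM in shNC against 1.29 and 1.25 in shNAT10 and rose by 1.72 (limma adjusted p = 0.132). *Ptpn7* rose by 0.39 (limma adjusted p = 0.163), from 22.7 and 21.2 to 28.02 and 29.6 FPKM. The 4 most abundant genes of the list were not called, with log2 fold changes of -0.14 for *Plek*, -0.20 for *Sash3*, -0.05 for *Cytip* and -0.25 for *Alox5ap*.

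The calls of *Fcer1g*, *Gmfg*, *Myo1g* and *Bin2* held with any single library left out. *Gpsm3* and *Lsp1* lost their calls without either shNAT10 library, *Ptpn7* without shNAT10-2, and *Il10ra* kept it only when shNC-1 was the library left out. The log2 fold change of *Il10ra* was -0.71 without shNC-2. The 12 falls became 7 without shNAT10-1, 5 without shNAT10-2, 11 without shNC-1 and 8 without shNC-2, and the 2 rises became 1, 0, 5 and 2. On the scale without the rRNA-related loci 9 fell and 3 rose.

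Genes that act with *Lcp2* and *Vav1* downstream of antigen and Fc receptors were examined next. Of 37 such genes 33 could be tested, 3 fell, 3 rose and 27 did not pass, and 16.2% of all genes were called in either direction. *Lat2*, for a membrane adapter of mast cells and B cells, was the most abundant, with 126 and 137 FPKM in shNC against 87.7 and 96.5 in shNAT10. Both shNAT10 libraries lay below shNC, a fall of 0.51 ± 0.10 on the log2 scale (limma adjusted p = 0.123). The Src family kinase gene *Fyn* fell by 0.78. *Ptpn11*, for the phosphatase SHP2, rose by 0.47, *Prkcq*, for a protein kinase C, by 0.41 and *Grb2*, for an adapter to the Ras pathway, by 0.33. The limma adjusted p-values of these 5 genes ran from 0.114 for *Fyn* to 0.288 for *Ptpn11*. *Lat* at 36.5 to 51.3 FPKM, *Lyn* at 22.6 to 26.2 and *Ptpn6* at 20.4 to 27.2 were not called, with log2 fold changes of -0.28, -0.13 and 0.27.

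Among these 5 genes only the call of *Fyn* held with any library left out, and *Lat2* lost its call without shNAT10-1. The log2 fold change of *Ptpn11* was 0.25 without shNC-2. The counts lower and higher were 2 and 1 without shNAT10-1, 2 and 0 without shNAT10-2, 2 and 2 without shNC-1 and 4 and 0 without shNC-2. They were 3 and 5 under quantile normalization and 2 and 6 on the scale without the rRNA-related loci.

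Actin regulators around *Was*, *Coro1a* and *Lcp1* were tested for 43 of 45 genes, and 8 fell and 3 rose with a median log2 fold change of -0.11. Of all genes, 7.83% fell and 8.41% rose, and of the 6898 genes with a mean FPKM of 4 or more, 13.6% fell and 11.9% rose. The Arp2/3 subunit gene *Arpc2* had 154 and 164 FPKM in shNC against 119 and 114 in shNAT10. It fell by 0.45 ± 0.09 on the log2 scale (limma adjusted p = 0.124). *Arpc5l*, for another subunit, fell by 0.48, whereas *Arpc1b* stayed at 104 to 115 FPKM with a log2 fold change of 0.06. *Actg1*, for cytoplasmic gamma actin, fell by 0.69 (limma adjusted p = 0.0963), from 31.1 and 34.8 to 21.6 and 19.3 FPKM. *Actb*, at 389 to 518 FPKM, had a log2 fold change of -0.24 and was not called. *Dock2*, for the Rac exchange factor of leukocytes, fell by 0.66 (limma adjusted p = 0.0716), and the study names it among partner mRNAs examined in the same contrast, so its direction is not independent evidence. *Fnbp1*, for a membrane-bending partner of WASP proteins, fell by 0.49. *Fscn1*, for the bundling protein fascin, rose by 0.57, and the cofilin gene *Cfl1* stayed at 221 to 227 FPKM.

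The calls of *Actg1*, *Dock2* and *Arpc2* held with any library left out. *Arpc5l* lost its call without either shNAT10 library, *Fnbp1* kept it only when shNC-2 was left out, and *Fscn1* only when shNAT10-2 was. The counts lower and higher were 6 and 0 without shNAT10-1, 4 and 2 without shNAT10-2, 10 and 0 without shNC-1 and 8 and 1 without shNC-2. On the scale without the rRNA-related loci 5 fell and 4 rose.

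*Srgn* carries chondroitin and heparan sulfate chains, so 20 genes of their synthesis were examined, and 18 could be tested. At the threshold 5 rose and 2 fell, against 8.41% and 7.83% of all genes. Of the 6898 genes with a mean FPKM of 4 or more, 11.9% rose and 13.6% fell. *Ext1*, for a heparan sulfate polymerase, rose by 0.67 on the log2 scale, *Csgalnact2*, which starts chondroitin chains, by 0.43, *Hs2st1* and *Ndst1*, for heparan sulfotransferases, by 0.41 each, and *B3gat3*, for an enzyme of the linker to the core protein, by 0.32. *Glce*, for the heparan epimerase, fell by 0.41 and *Chsy1*, for a chondroitin polymerase, by 0.37. Limma adjusted p-values of these 7 genes ran from 0.198 to 0.30. *Ndst2*, the heparan sulfotransferase of mast cell granules, stayed at 12.8 to 17.2 FPKM. The calls of *Hs2st1* and *Glce* were lost at each omission of a library and those of the other 5 genes at 3 of the 4 omissions, and *Chsy1* had a log2 fold change of -0.22 without shNC-2. The counts higher and lower were 0 and 0 without shNAT10-1, 1 and 1 without shNAT10-2, 2 and 1 without shNC-1, and 1 and 0 without shNC-2. They were 5 and 1 under quantile normalization and 5 and 0 on the scale without the rRNA-related loci.

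**Figure D5:**
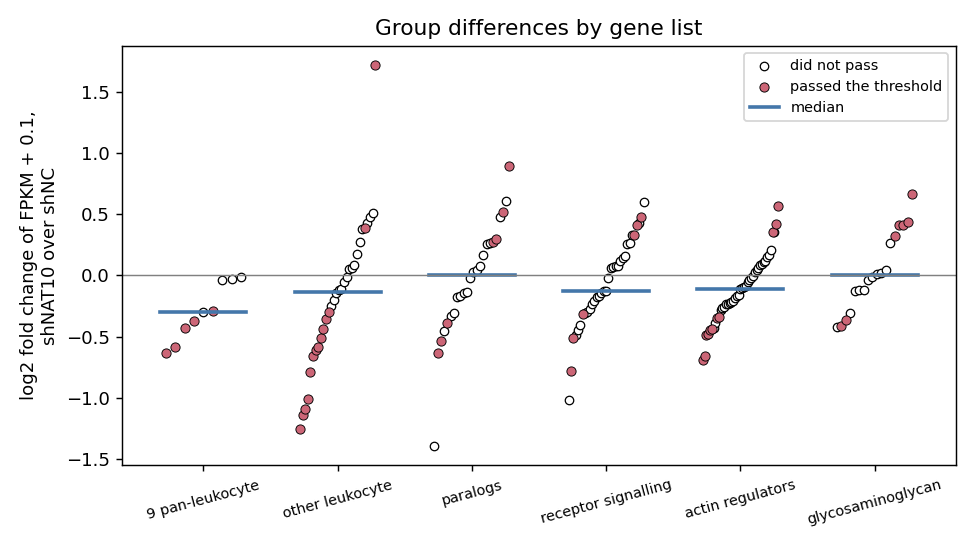
Log2 fold change of FPKM + 0.1, shNAT10 over shNC (y axis), of each tested gene of the 9 pan-leukocyte genes and 5 related lists, sorted within a list. Filled points passed a fold change of 1.2 with an unadjusted p of at most 0.05, and blue bars are medians, which run from -0.30 for the 9 genes to 0.00 for the paralogs.

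The mean profile of the 9 genes across the 4 libraries was matched against 6007 other genes whose mean FPKM was 5 or more. The 5 nearest by Euclidean distance on the centred log2 scale were *Wdr92* (0.0134), *Emc7* (0.0228), *Plekho1* (0.0252), *Cyb5b* (0.0257) and *Kdelr2* (0.0267). *Wdr92* had 26.9 and 26.1 FPKM in shNC and 21.4 and 22 in shNAT10. The distances of the 9 genes themselves from their own mean ran from 0.123 for *Lcp1* to 0.535 for *Laptm5*. The 5 genes were selected as the nearest of 6007, so their smaller distances follow from that selection. With 4 libraries such a likeness rests on few points.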

How the data were processed

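Long RNA-seq was measured in FGSCs with shNC or shNAT10, 2 libraries per group, grouped by the titles of the labels. The authors trimmed reads with cutadapt, aligned them with HISAT2 to mm10 and compared groups with DESeq2, per the methods and the submitters' processing notes. The methods name an rRNA-depleted kit and the labels an mRNA isolation, so the preparation is uncertain, and the counting program is not given in the sources used here. The authors deposited FPKM for 53465 genes, and 0 columns with values of single libraries were left unmapped. Their second table holds their own fold changes and p-values and was not used.

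Median-ratio factors of the FPKM were 1.004 to 1.005, so the deposited FPKM were already on that scale. Groups were compared on log2(FPKM + 0.1), which understates changes of low genes, with limma 3.58.1 in R 4.3.3 (lmFit, eBayes with trend, two-sided) over the 20116 genes whose mean FPKM reached 0.1. A call needed more than a 1.2-fold change and an unadjusted p at or under 0.05, the threshold of the study, and adjusted p-values are Benjamini-Hochberg over all genes tested. A count test was not the main test because the values are FPKM. In data simulated for this comparison over 20077 genes, 189 of 200 genes changed by a log2 fold change of 1.5 were called, and 5.23% of unchanged genes were. Changes of other sizes were not simulated, so the recovery of smaller ones, such as the -0.64 of *Laptm5*, is unknown. The 5.23% holds for the spread given to the simulated data and was not measured in the libraries.

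Fragments were recovered from FPKM, GENCODE M21 exon lengths (53360 of 53465 genes, 99.8%) and a step per library. Of values under 50 fragments, 96.0% to 96.6% came out whole within 0.02. A floor of 3 fragments equals 0.196 to 0.255 FPKM for a transcript of 1 kb. It covers counting error only. The rRNA-related loci were *Gm42418*, *CT010467.1* and *Gm26917*, and the paper treats *Gm42418* and *Gm26917* as long noncoding RNAs. Gene positions are from GENCODE M21 on GRCm38 and promoter windows from RefSeq GRCm38.p6. Duplicated symbols used the entry of higher mean FPKM.

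The 9 genes and all lists were chosen with earlier results of these data known. Named from each list were up to 6 called genes with a mean FPKM of 1 or more, no overlap between groups and the largest fold change, the 4 of highest FPKM, and every paralog with a mean FPKM of at least 0.1. Single markers such as *Kit*, and *Lsp1* and *Ptpn7*, were picked once their values were known. A result for 1 gene that the rule names is not reported here. Alternatives were other pseudocounts, filters and scalings, limma without the trend, limma-voom on the recovered fragments, the replicate number as a block, and each library left out. Tables and plots were made in Python 3.11.15 (numpy 2.4.6, pandas 2.3.3, matplotlib 3.10.9).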

Additional observations from a re-analysis of the deposited data

How the results depend on the processing

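Under pseudocounts of 1 and 0.01, median-ratio rescaling and no filter on low values, each count stayed within 1.5 times its value in the report. With a mean FPKM of at least 1, 1 other leukocyte gene rose. Quantile normalization gave 5 signalling rises and 1 glycosaminoglycan fall. Limma without the trend called 1 of the 9 genes lower, 2 paralogs higher, 7 other leukocyte genes lower, 1 signalling gene higher, 5 actin regulators lower and 1 higher, and 1 glycosaminoglycan gene lower and 2 higher. Limma-voom called 5 paralogs lower, 5 other leukocyte genes higher, and 7 signalling genes lower and 5 higher. It gave an adjusted p under 0.05 to 1581 of 20077 genes, against 88 in the main comparison, among them 4 of the 9 genes against 0, 9 other leukocyte genes against 1, 3 paralogs, 3 signalling genes, 8 actin regulators and 3 glycosaminoglycan genes against 0 each. Scaled to fragments outside the rRNA-related loci, 3 of the 9 genes, 980 of all genes, 5 actin regulators and 0 glycosaminoglycan genes were lower, 6 signalling genes were higher, and the median of the 9 genes was -0.19. *Ptprc* and *Vav1* were at 0.01 and 0.00 under quantile normalization. The causes were not tested.

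With 1 library left out, 1 to 3 of the 9 genes were lower and 0 higher, with a median of -0.37 to -0.28. Of all genes 899 to 1659 were lower and 1108 to 1734 higher. Paralogs gave 1 to 2 lower and 3 to 5 higher, other leukocyte genes 5 to 11 and 0 to 5, signalling genes 2 to 4 and 0 to 2, actin regulators 4 to 10 and 0 to 2, and glycosaminoglycan genes 0 to 1 and 0 to 2. The lone library of a group was then assumed to vary like the others.

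As a replicate block, the replicate number left 4 of the 9 genes lower and 1 glycosaminoglycan gene lower, and moved no other count by over 1.5 times. The numbers were not taken to pair the libraries, since deviations of same-numbered libraries correlated at 0.00711 over 20116 genes in 2 pairs. Counting the main comparison with its alternatives, *Cd53* was called in 14 of 15 settings, *Lcp1* in 13, *Srgn* in 11, *Lcp2* in 9 and *Laptm5* in 8. These settings refit the same libraries and are no test of the 9 genes. For *Nat10* and the 33 called genes named from the lists, 395 of 475 values kept the call, 80 lost it and 0 changed sign.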
